A study of Mus musculus with 19 samples.

Results

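The genes described here are 37 enzymes and regulators of sterol, fatty acid and wax synthesis, taken from the 24552 gene symbols of the deposited tables by a list of names that was drawn up with earlier results of these data known. The list held 6 enzymes of the mevalonate pathway, 11 enzymes of sterol synthesis, 4 regulators or carriers of cholesterol, 7 enzymes of fatty acid synthesis and desaturation, 6 fatty acid elongases and 3 enzymes of wax and sterol ester synthesis. All 37 genes had a row in both tables. RNA was sequenced from the cornea and the conjunctiva of female C57BL/6 mice (C57BL/6 J in the study's methods) that ate freely (ad libitum, AL) or received a restricted ration (calorie restriction, CR). By the study's methods the mice were adult when the restriction began, and it lasted for months, whereas the series text calls them young. No genetic change or transgene was named. The study asked how CR alters the ocular surface. There were 5 AL and 5 CR libraries from the cornea, and 4 AL and 5 CR libraries from the conjunctiva. The corneal epithelium was scraped off and the conjunctiva was cut out, so the conjunctiva libraries also held RNA of the tissue under the epithelium. The sample titles also carry the marks 6M and 50W, which the labels do not explain. Libraries are named by diet and by the replicate number in their title.

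Cells build cholesterol from acetyl-CoA through the mevalonate pathway, squalene and a series of sterol intermediates. The transcription factors SREBP-2 and SREBP-1, encoded by Srebf2 and Srebf1, drive the genes of sterol and fatty acid synthesis, and the proteins encoded by the Insig genes hold them back when sterol is plentiful. At the eye, the meibomian glands of the lid make wax esters and cholesteryl esters with very long acyl chains for the lipid layer of the tear film, using elongases, fatty acyl-CoA reductases and wax synthases.

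Values are normalized counts, meaning reads per gene divided by the authors' size factor for the library. Counted reads ran from 10354125 to 14681223 per cornea library and from 10726717 to 14433441 per conjunctiva library. A value of 0 still allows 3 reads, or 2.27 to 3.37 normalized counts by library, a limit that covers counting error only. The tissue labels matched their markers. Krt12, the keratin of corneal epithelium, lay between 179846 and 340965 in the cornea and at or below 5139 in the conjunctiva. Muc5ac, the mucin of goblet cells, lay between 2328 and 6593 in the conjunctiva and at or below 43.3 in the cornea. The summed level of 7 fibroblast genes was 425 to 2122 in CR cornea but 26075 to 51648 in CR and 39905 to 59779 in AL conjunctiva. The summed level of 8 skeletal muscle genes ranged from 13889 to 143992 in the conjunctiva. In bulk RNA, fewer cells of a type and less RNA per cell cannot be told apart.

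In freely fed mice most genes of the sterol pathway took a larger share of the reads in the cornea than in the conjunctiva. Since the authors scaled each tissue separately, this is a description on counts per 1000000 counted reads (CPM), with no test. Of the 17 mevalonate and sterol enzymes, 15 were higher in all 5 AL cornea libraries than in all 4 AL conjunctiva libraries, and 0 were lower. For comparison, 9.93% of the 11929 genes over the low-count limit in both tissues were higher in the cornea with no overlap, and 28.4% were lower. The median ratio of cornea to conjunctiva was 2.86 for the 17 enzymes and 0.838 for all genes. The largest ratio of the 17, 4.22, was that of Sqle, the squalene epoxidase, at 197 ± 16.3 in cornea and 46.7 ± 14.1 in conjunctiva (SD, n = 5 and 4). Hmgcs1, the HMG-CoA synthase that opens the mevalonate pathway, stood at 999.5 ± 87.2 in cornea and 287 ± 90.7 in conjunctiva. Mvd, which makes isopentenyl diphosphate, stood at 46.7 ± 5.56 in cornea and 11.5 ± 6.35 in conjunctiva. The 2 enzymes whose libraries overlapped were Ebp, a sterol isomerase, with a ratio of 1.15, and Dhcr7, which carries out the last reduction to cholesterol, with a ratio of 1.11.

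The other groups were less uniform. Srebf1 libraries overlapped, at 48.8 ± 6.34 in cornea and 47.6 ± 6.46 in conjunctiva CPM, whereas Srebf2, Insig1 and Stard4, a cholesterol carrier, were higher in every AL cornea library. Scd2, a stearoyl-CoA desaturase, stood at 772 ± 116 in cornea and 225 ± 17.6 in conjunctiva CPM. Its relative Scd1 stood at 26.2 ± 6.74 in cornea and 39.8 ± 15.8 in conjunctiva, with overlapping libraries. Among the elongases, Elovl6, which extends saturated C16 chains, was 2.83 times as high in the cornea, whereas Elovl5 and Elovl7 were lower in every AL cornea library, with ratios of 0.597 and 0.339. Soat1, which esterifies cholesterol, was also lower there, with a ratio of 0.318. Elovl3, Elovl4, Far2 and Awat2 were under the low-count limit of a mean of 10 normalized counts in the cornea. Their highest value in any of the 10 cornea libraries was 21.9, for Elovl4 in CR 1. Of 37 other genes of sterol and fatty acid metabolism on a second list, 12 were higher in the cornea without overlap and 8 were lower. The 2 tissues also differed in the fibroblast and muscle genes given above, which take reads in the conjunctiva, and their part in these ratios was not tested.

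**Figure D1:**
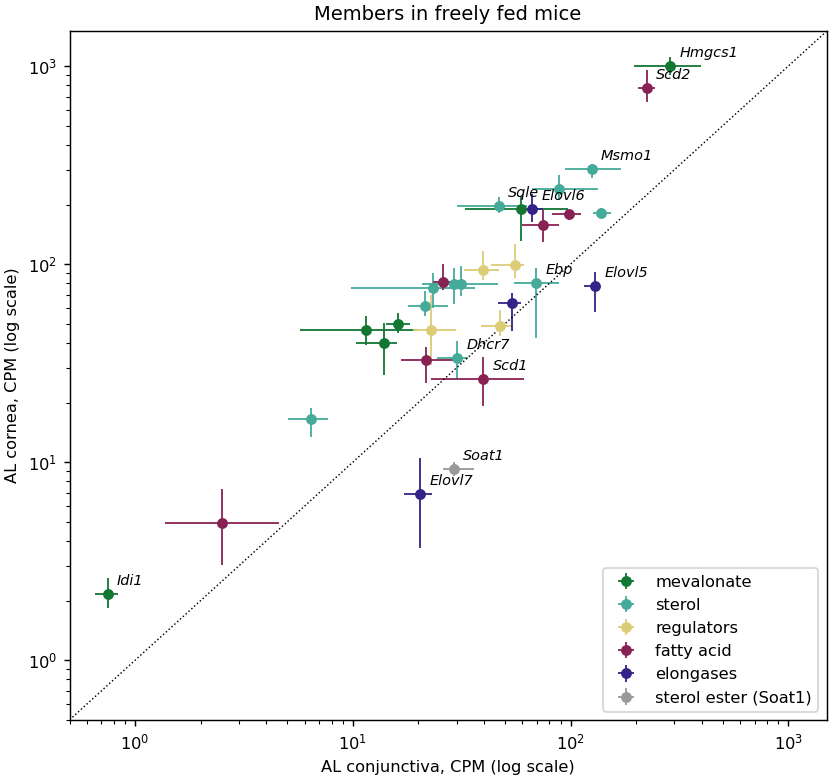
CPM in AL conjunctiva (x axis) and AL cornea (y axis), both on log scales, for the 33 members over the low-count limit in both tissues. Points are means of 4 and 5 libraries, bars span the lowest to the highest library, the dotted line marks equal levels, and 23 members lie above it with no overlap of libraries while 3 (Elovl5, Elovl7 and Soat1) lie below it with none.

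The promoters of the sterol genes shared a CCAAT box, but not the other motifs searched. RefSeq promoter windows on GRCm38.p6 matched 29 of the 37 members, and the 250 bases before each annotated start were searched on both strands. The letters CCAAT, the box bound by NF-Y, a usual partner of SREBP, stood in the window of 14 of 14 mevalonate and sterol enzymes that had one. Of all 29 members 22 (75.9%) held CCAAT, against 37.5% of the 27025 genes with a window and 40.1% of those tested in either tissue. The letters CACGTG, an E-box, stood in 5 members (17.2%), against 6.86% of all genes and 9.63% of those tested. Of the 14 mevalonate and sterol enzymes 3 held it. The letters CACCCCAC, the core of a sterol regulatory element, stood in 2 members, Hmgcs1 and Elovl7 (6.90%), against 2.98% of all genes and 3.44% of those tested. Hmgcs1 was thus the only 1 of the 14 mevalonate and sterol enzymes with it. Different motifs did not overlap in any member's window. A match is a description of the letters and not a bound site. Only these exact letters were searched, so other forms of the motifs were not counted. A window without a match may still hold such a form.

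Shown are the windows of Hmgcs1 and Cyp51 from the sterol pathway, of Insig1 and Srebf1 from its control, and of Elovl4, the member with the highest value among the gland genes below. Capitals mark the 3 motifs on either strand, so that CCAAT also appears as its reverse complement. Each is written in the direction of transcription. Hmgcs1 lies at chr13:119690101-119690350 on the plus strand and holds 3 CCAAT boxes and the sterol element core. Cyp51 lies at chr5:4104698-4104947 on the minus strand and holds 1 CCAAT box. Insig1 lies at chr5:28071162-28071411 on the plus strand, with 1 CCAAT box and 1 E-box. The Srebf1 window, 1 of 3 for its starts, lies at chr11:60210472-60210721 on the minus strand with 1 CCAAT box. The Elovl4 window at chr9:83806306-83806555 on the minus strand holds 0 of the 3 motifs.
Hmgcs1: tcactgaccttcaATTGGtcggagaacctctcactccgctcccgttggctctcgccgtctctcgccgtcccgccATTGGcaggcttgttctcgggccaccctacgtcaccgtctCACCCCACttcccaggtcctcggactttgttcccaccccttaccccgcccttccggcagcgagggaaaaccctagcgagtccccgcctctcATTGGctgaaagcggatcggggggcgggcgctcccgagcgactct
Cyp51: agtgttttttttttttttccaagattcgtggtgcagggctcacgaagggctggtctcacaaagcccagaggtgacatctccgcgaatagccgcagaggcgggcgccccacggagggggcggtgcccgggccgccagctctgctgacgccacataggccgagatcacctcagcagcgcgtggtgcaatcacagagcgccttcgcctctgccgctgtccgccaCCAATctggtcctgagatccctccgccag
Insig1: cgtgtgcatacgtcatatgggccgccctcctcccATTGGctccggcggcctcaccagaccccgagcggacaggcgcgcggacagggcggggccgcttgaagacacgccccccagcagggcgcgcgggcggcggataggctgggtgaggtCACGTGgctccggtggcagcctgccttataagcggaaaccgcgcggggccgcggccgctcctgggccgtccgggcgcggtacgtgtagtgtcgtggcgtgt
Srebf1: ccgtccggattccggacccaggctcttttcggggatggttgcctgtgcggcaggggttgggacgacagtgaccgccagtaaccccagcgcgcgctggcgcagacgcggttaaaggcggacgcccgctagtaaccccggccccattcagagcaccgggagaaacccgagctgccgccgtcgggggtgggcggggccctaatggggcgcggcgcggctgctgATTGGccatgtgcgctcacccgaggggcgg
Elovl4: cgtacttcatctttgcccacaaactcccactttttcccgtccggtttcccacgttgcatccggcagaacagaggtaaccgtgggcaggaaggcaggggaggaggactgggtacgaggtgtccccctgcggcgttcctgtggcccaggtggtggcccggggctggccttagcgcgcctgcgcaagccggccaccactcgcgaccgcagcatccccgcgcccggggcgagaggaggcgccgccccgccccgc

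**Figure D2:**
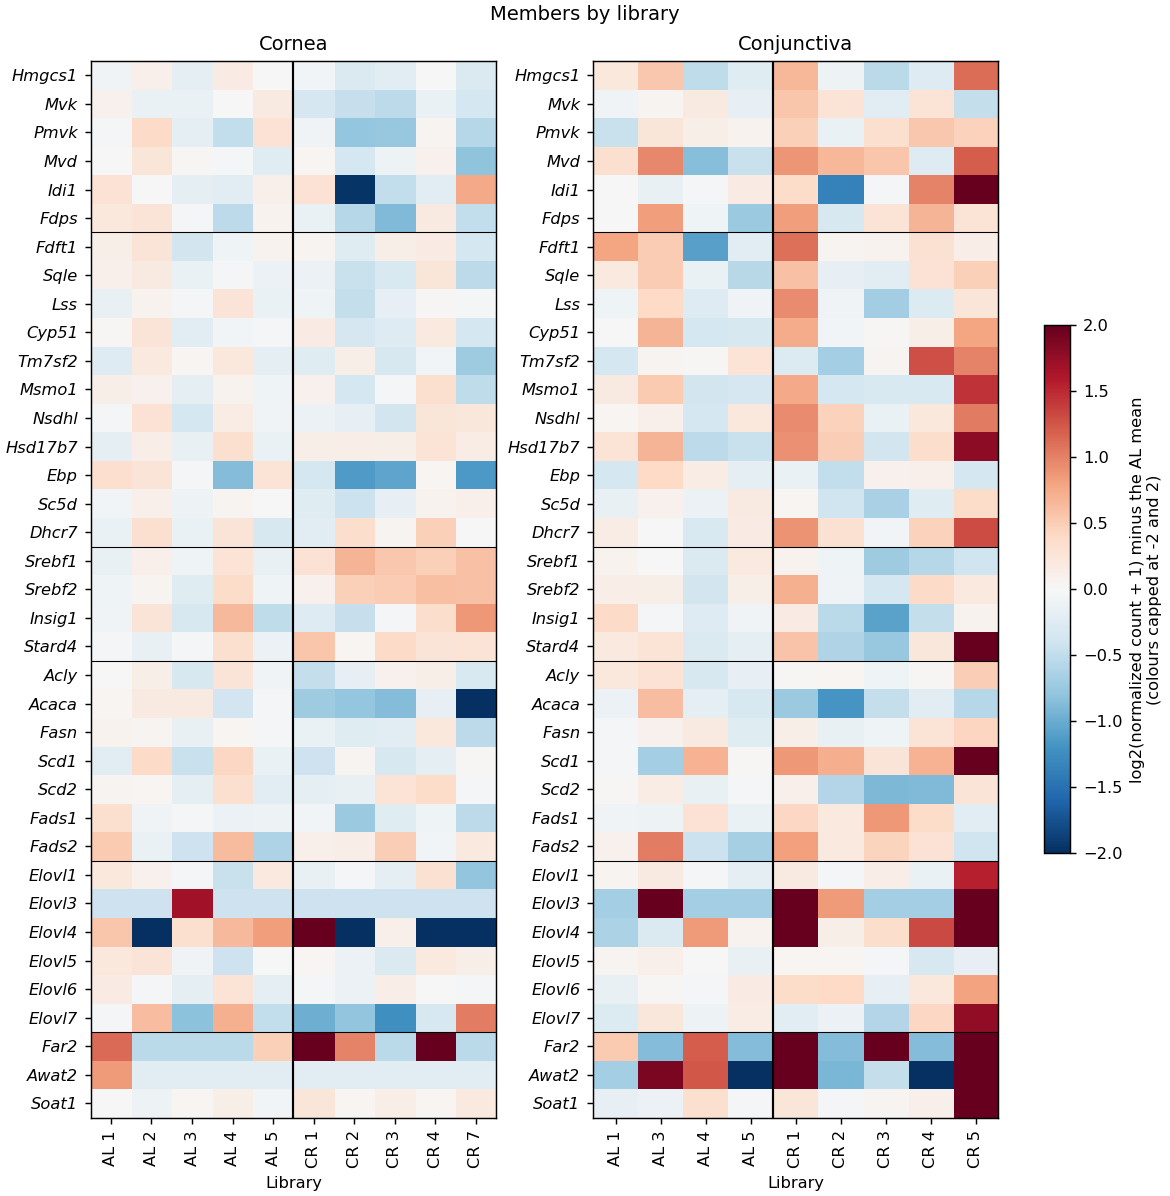
Difference of log2(normalized count + 1) from the AL mean of the same tissue (colour, capped at −2 and 2) for the 37 members (rows, grouped by role with horizontal lines) in each library (columns, AL left of the vertical line and CR right). Conjunctiva CR 5 is red in most rows, cornea CR libraries are red for Srebf1 and Srebf2 and mostly blue for Acaca, and the strong colours of Elovl3, Elovl4, Far2 and Awat2 in the cornea come from values of at most 21.9 normalized counts.

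In the cornea no member was called changed by CR. Of the 33 members tested, 0 met both limits of the test, an adjusted p under 0.05 and a fold over 1.5 (limma, Benjamini-Hochberg over all genes), where 1.22% of the 12278 tested genes did. Srebf1 was the only member with an adjusted p under 0.05, a threshold passed by 1.53% of genes, and its fold was under 1.5. At an unadjusted p under 0.05 there were 8 members (24.2%), beside 18.1% of all genes. The fitted change was below 0 for 24 of the 33 members (72.7%), beside 53.1% of all genes, and the median was −0.15 on the log2 scale, beside −0.03 over all genes. The 95% confidence interval lay within a 1.5-fold change on both sides for 20 members. The count became 1 without AL 4, when Ebp was called, and 1 without CR 4, when Acaca was. The share of all genes called in these fits is not given here.

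Srebf1, Srebf2 and Stard4 stood on the opposite side of 0 from most of the enzymes. Insig1 was also above 0, but with an interval that included 0. Srebf1, at chr11:60199084-60224186 on GRCm38.p6, had normalized counts of 509, 601, 530.4, 680.0 and 508 in AL and 683, 899, 816, 786 and 843 in CR. Every CR library was above every AL library, although the highest AL value (AL 4) and the lowest CR value (CR 1) nearly met, and no other tested member separated the diets, beside 3.97% of all genes. The log2 change was 0.51 ± 0.12 (SE; 95% confidence interval 0.25 to 0.77; adjusted p = 0.0452 by limma). This adjusted p was under 0.05 in 8 of 21 alternative fits. With a single library left out it passed without AL 4 or without CR 1, and missed the limit without any of the other 8. Srebf1 overlaps Rai1 in the annotation, and whether strand was used in counting is unknown. Such an overlap was annotated for 19 of the 37 members, among them Fdft1 with Ctsb, Tm7sf2 with Vps51 and Elovl1 with Cdc20.

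Srebf2 had normalized counts of 1076, 1178, 963, 1469 and 1068 in AL and 1208, 1578, 1621, 1724 and 1714 in CR. The 4 highest values were CR libraries, while CR 1 lay among the AL libraries. The change was 0.45 ± 0.13 on the log2 scale, with an adjusted p of 0.0849. Stard4 had 1045, 976, 1059.8, 1347 and 992 in AL and 1581, 1102, 1401, 1283 and 1298 in CR, with AL 4 inside the CR range, and a log2 change of 0.30 ± 0.12 (adjusted p = 0.209). Insig1 spread widely within each diet, from 360.5 to 808 in AL and 375 to 941 in CR, and its log2 change was 0.10 ± 0.27.

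All 6 enzymes of the mevalonate pathway had a fitted change below 0 in the cornea, from −0.42 to −0.17 on the log2 scale, and none passed the test. Mvk, the mevalonate kinase, had normalized counts of 611, 527, 525, 572 and 654 in AL and 453, 417, 400.0, 525 and 452 in CR. Of the CR libraries 4 were below every AL library and CR 4 met the lowest of them. Its log2 change was −0.36 ± 0.13, with an adjusted p of 0.149. Pmvk, the next kinase, had 446, 591, 401, 322 and 554 in AL and 430.4, 265, 267, 469 and 303 in CR. CR 2, CR 3 and CR 7 were below every AL library, and the log2 change was −0.42 ± 0.20 (adjusted p = 0.264). Fdps, which makes farnesyl diphosphate, had 2514, 2593, 2151, 1513 and 2293 in AL and 1977, 1463, 1184, 2466 and 1546 in CR, and its diets overlapped, with AL 4 among the lowest values and CR 4 among the highest. Its log2 change was −0.38 ± 0.19. Hmgcs1 ranged from 10197 to 12933 in AL and 9441 to 11629 in CR, with a log2 change of −0.17 ± 0.10 (95% confidence interval −0.38 to 0.04). Mvd had a change of −0.23 ± 0.16, and Idi1, the isomerase of the pathway, one of −0.32 ± 0.52 on at most 42.7 normalized counts.

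Of the 11 sterol enzymes 9 had a fitted change below 0, and none passed the test. Ebp, at chrX:8185329-8193512, had the largest, with normalized counts of 1129.9, 1071, 881, 491 and 1076 in AL and 698, 407, 430.3, 911 and 402 in CR. CR 2, CR 3 and CR 7 were below every AL library, AL 4 was close to them, CR 1 was intermediate and CR 4 lay among the other AL libraries. The log2 change was −0.73 ± 0.29 (95% confidence interval −1.36 to −0.10; adjusted p = 0.217). The other enzymes varied less. Sqle had a log2 change of −0.23 ± 0.13, Lss, the lanosterol synthase, −0.15 ± 0.13, and Cyp51, the lanosterol demethylase, −0.12 ± 0.13. Tm7sf2, a sterol reductase, had a change of −0.24 ± 0.19, Sc5d, a sterol desaturase, −0.13 ± 0.11, and Msmo1, which removes sterol methyl groups, −0.10 ± 0.14. Fdft1, the squalene synthase, and Nsdhl, a sterol dehydrogenase, were nearest to 0, at −0.05 ± 0.14 and −0.04 ± 0.14. Hsd17b7 and Dhcr7 were the 2 with a change above 0, at 0.16 ± 0.12 and 0.13 ± 0.17.

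Among the enzymes of fatty acid synthesis, Acaca, at chr11:84129635-84401651, had the largest change of all members in the cornea. It encodes acetyl-CoA carboxylase, the committed step of fatty acid synthesis, and had normalized counts of 387, 430.4, 431, 290.0 and 373 in AL and 230.0, 221, 208, 338 and 87.3 in CR. Of the CR libraries 4 were below every AL library, and CR 4 lay between AL 4 and the other AL libraries. CR 7 was the lowest by far. The log2 change was −0.92 ± 0.28 (95% confidence interval −1.52 to −0.33; adjusted p = 0.115), and without CR 7 it was −0.63. Acaca overlaps Tada2a in the annotation. Fads1, a fatty acid desaturase, had 1174, 887, 923, 859.5 and 871 in AL and 905, 561, 789, 887 and 653 in CR. CR 2, CR 3 and CR 7 were below every AL library and AL 1 stood above all others, with a log2 change of −0.33 ± 0.14 (adjusted p = 0.237).

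The remaining fatty acid genes had intervals that included 0 in the cornea. Acly, which supplies cytosolic acetyl-CoA, had a log2 change of −0.15 ± 0.13, and Fasn, the fatty acid synthase, −0.18 ± 0.12. Scd1 and Scd2 had changes of −0.17 ± 0.18 and 0.05 ± 0.13, and Fads2 one of 0.17 ± 0.30. Reads of the Scd genes can be hard to place, since these paralogs are alike in sequence. Elovl5 and Elovl6 were among the closest to 0, at −0.01 ± 0.14 and −0.01 ± 0.11, with intervals of −0.30 to 0.28 and −0.24 to 0.22. Elovl1 had a change of −0.17 ± 0.18 and Elovl7 one of −0.45 ± 0.41, with CR 7 at 151 and the other CR libraries at most 59.3. Soat1 had a change of 0.13 ± 0.19.

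**Figure D3:**
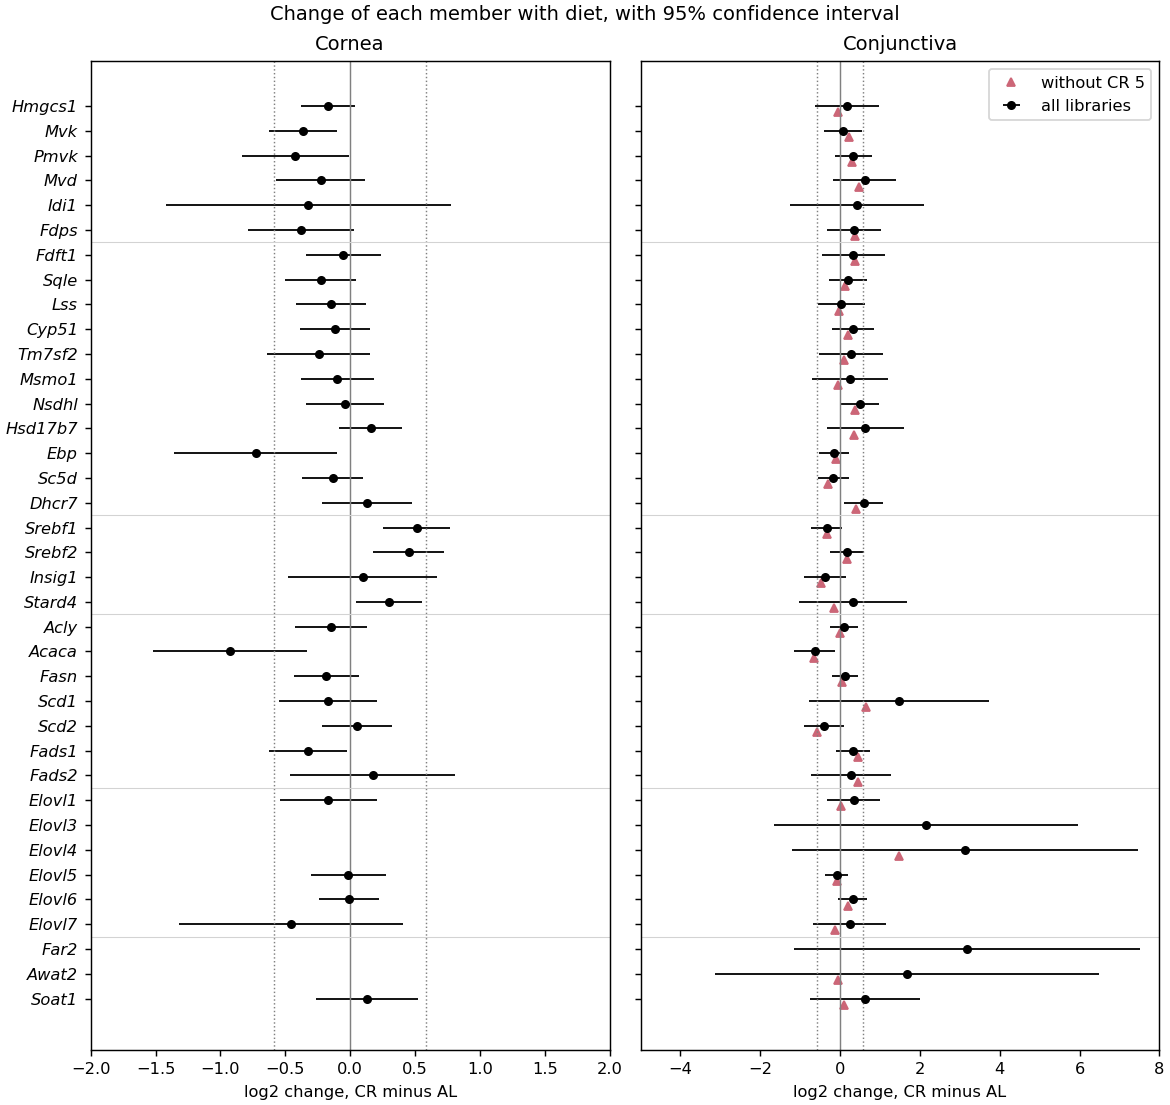
Fitted log2 change, CR minus AL, of each member in the cornea (left, 5 and 5 libraries) and the conjunctiva (right, 4 and 5 libraries, on a wider axis), with 95% confidence intervals. Dotted lines mark a 1.5-fold change, triangles give the fit without conjunctiva CR 5, and genes under the low-count limit have no point. In the cornea Srebf1, Srebf2 and Stard4 lie right of 0 with intervals that exclude it, and Mvk, Pmvk, Ebp, Acaca and Fads1 lie left.

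A library property moved with these values. The share of genes with 0 reads was 39.0%, 38.7%, 39.1%, 45.2% and 40.7% in the AL cornea libraries and 39.9%, 46.1%, 45.6%, 42.7% and 47.6% in the CR libraries. AL 4 thus lay among the CR libraries and CR 1 among the AL libraries. With this share as a covariate, the log2 change was 0.34 ± 0.13 for Srebf1, 0.22 ± 0.13 for Srebf2, −0.46 ± 0.26 for Acaca and −0.14 ± 0.18 for Ebp, and no member had an adjusted p under 0.05 (0.292 for Srebf1). The median over members was then −0.06, with 21 of 33 below 0. When AL 4 and CR 1 were left out, a choice made after the data were seen that separates the diets completely on this share, 5 members were called, beside 9.87% of the 12281 genes then tested. Acaca (−1.07), Ebp (−1.04) and Pmvk (−0.63) were lower in CR, and Srebf1 (0.64) and Srebf2 (0.63) higher, on the log2 scale (limma). Genes listed as lacrimal gland markers also differed, with summed levels of 14 genes of 30240.5 to 62984 in AL and 23416 to 36314 in CR cornea. In the conjunctiva the same sum was 1355 to 1818 in AL and 2134 to 2718 in CR. All 8 genes of the list that were tested had a fitted change below 0, with a median of −2.22 on the log2 scale, and 2 of them, Aqp5 and Scgb2b24, were called lower in CR (adjusted p = 0.0476 and 0.0387 by limma). Sval1 and Sval3 were at 0 in every cornea library. Most of the cornea sum was Aqp5, so the sum mainly shows the level of that single gene and not of the list. Whether these reads came from lacrimal gland was not tested. What part either property has in the diet values was not tested.

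**Figure D4:**
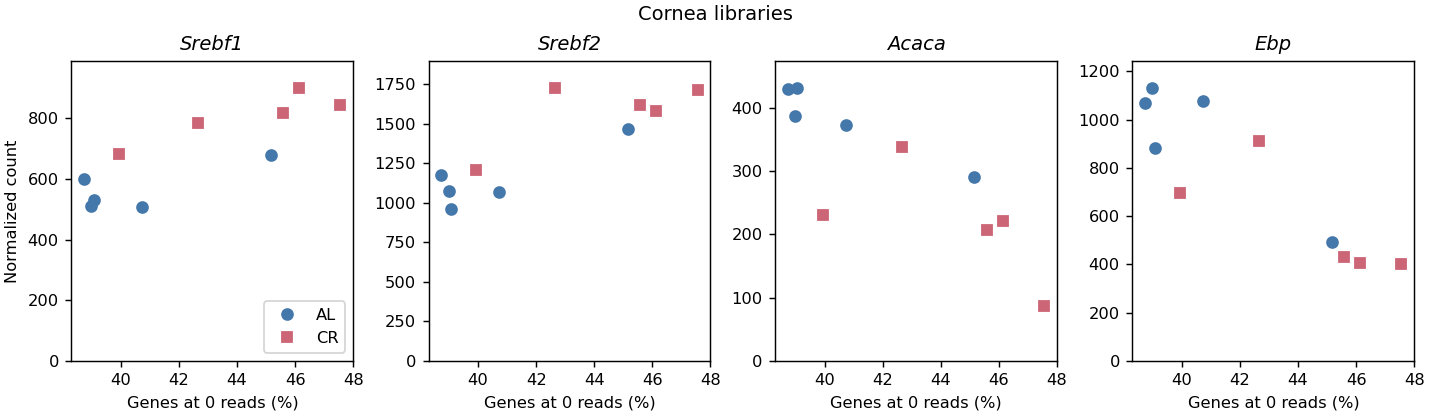
Normalized counts of Srebf1, Srebf2, Acaca and Ebp (y axes, from 0) against the share of genes with 0 reads (x axes, percent) in the 5 AL (circles) and 5 CR (squares) cornea libraries. AL 4, at 45.2%, lies with the CR libraries on the x axis, with the lowest AL value of Acaca and Ebp and the highest of Srebf1 and Srebf2.

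In the conjunctiva 0 of the 37 members were called changed, where 0.359% of the 13929 tested genes were, by the adjusted p with or without the fold limit. None separated the diets, beside 3.87% of all genes, and 3 (8.11%) had an unadjusted p under 0.05, beside 9.40% of all genes. The fitted change was above 0 for 30 of the 37 members (81.1%), beside 48.0% of all genes, with a median of 0.32, beside −0.02 over all genes. These include Elovl3, Elovl4, Far2, Awat2 and Idi1, which passed the low-count limit only because CR 5, or CR 1 and CR 5, were high. For these genes, passing through those libraries favoured a change above 0. Of the 32 members over the limit also without those libraries, 25 had a change above 0, beside 47.9% of such genes, with a median of 0.26. The intervals were wide. They lay within a 1.5-fold change on both sides for 6 members only. Without CR 5, 21 of 34 members had a change above 0, beside 48.9% of genes, the median was 0.10, and 0 members were called, beside 0.545% of genes. Without both CR 5 and CR 1, the figures were 16 of 32 members, beside 48.7% of genes, and a median of 0.00.

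CR 5 held a large amount of transcripts used by lid glands. Elovl4, at chr9:83778692-83806305, extends very long acyl chains and had normalized counts of 2.41, 3.37, 8.61 and 4.54 in AL and 87.7, 4.76, 5.79, 12.3 and 4552 in CR. CR 5 was 51.9 times the next library, CR 1, which in turn stood above the other 7. Far2, a reductase that makes fatty alcohols, had 1.61, 0, 3.23 and 0 in AL and 68.2, 0, 6.76, 0 and 2367 in CR. Awat2, which joins fatty alcohols and acids into wax esters, had 2.41, 19.1, 11.8 and 0 in AL and 68.2, 1.90, 2.90, 0 and 2051 in CR. For both genes CR 5 was the highest library and CR 1 the second, and the others held at most 19.1. Elovl3, another elongase of long saturated chains, had 0, 5.61, 0 and 0 in AL and 12.7, 1.90, 0, 0 and 452 in CR, in the same order at the top. Elovl3 and Far2 passed the low-count limit only through CR 5, and Elovl4 and Awat2 only through CR 1 and CR 5, so their fitted changes of 1.68 to 3.19, with standard errors of 1.80 to 2.14, rest on those libraries. Without CR 5 the log2 change was 1.47 for Elovl4, which then passed only through CR 1, and −0.04 for Awat2.

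The same library also led for genes with a level in every library. Scd1, at chr19:44394450-44407709, which introduces the double bond into stearoyl-CoA, had 437, 276, 715 and 449.7 in AL and 810.4, 738, 533, 716 and 12184 in CR. CR 5 was far above the other 8 libraries, and without it the log2 change was 0.64 ± 0.24 (adjusted p = 0.378). Soat1 had 304, 312, 424 and 333 in AL and 402, 335, 351, 367 and 2349 in CR, 5.54 times the next library in CR 5. Stard4 had 533, 562, 379 and 408 in AL and 686, 306, 274, 543 and 2103 in CR, 3.07 times the next library in CR 5. Elovl1 and Elovl7 were 1866 and 820.0 in CR 5 and at most 721.8 and 318.6 elsewhere. Among the 32 members over the low-count limit also without CR 1 and CR 5, CR 5 was the highest of 9 libraries for 17 and over 2 times the next for 5, beside 20.3% and 0.571% of such genes. Since CR 5 was singled out with these values known, this is a description. Without CR 5 the log2 changes of Soat1, Stard4, Elovl1 and Elovl7 were 0.09 ± 0.17, −0.14 ± 0.27, 0.03 ± 0.15 and −0.13 ± 0.22.

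Of the meibomian gland markers that are no members, Awat1, a wax synthase, followed the same order. It was at 1039 in CR 5, at 45.8 in CR 1 and at 0 in the other 7 libraries. The summed level of 11 meibomian genes was 1547 to 1725 in AL and 2108, 2100, 1857, 1852 and 6817 in CR 1 to CR 5. The sum was thus alike in CR 1 and CR 2 and above every AL library in all 5, whereas Elovl4, Far2 and Awat2 were high in CR 1 and CR 5 only. Mc5r, Fa2h and Mogat2 of this list were at or below 9.97 in every library. None of the 8 genes of the list that were tested was called between the diets.

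**Figure D5:**
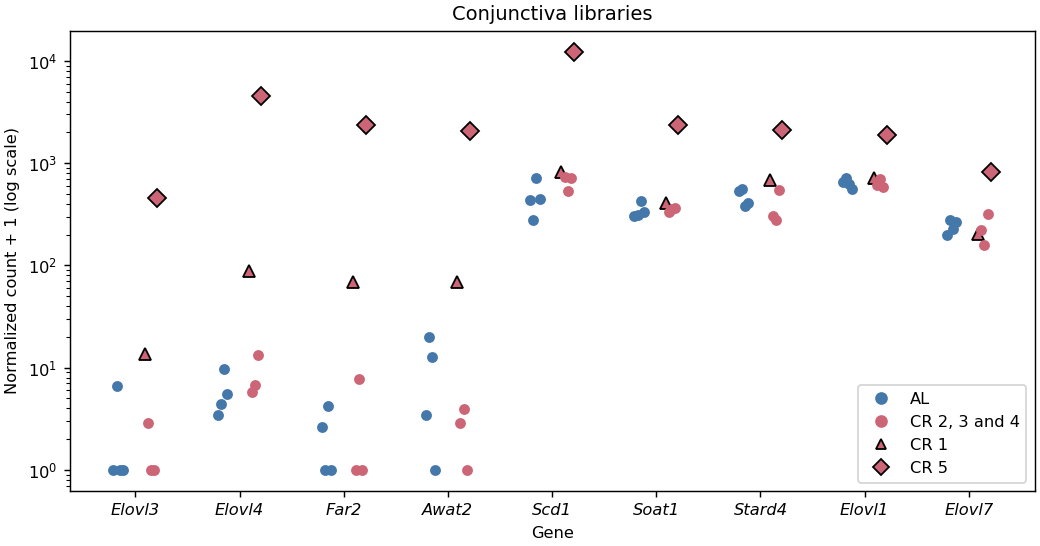
Normalized count plus 1 (y axis, log scale) of 9 members (x axis) in the 4 AL and 5 CR conjunctiva libraries. CR 5 (diamonds) is the highest library for each of the 9 genes, and CR 1 (triangles) is second for Elovl3, Elovl4, Far2 and Awat2, where the other 7 libraries hold at most 19.1 normalized counts.

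Of the 17 mevalonate and sterol enzymes 15 had a fitted change above 0 in the conjunctiva, with a median of 0.32 on the log2 scale, and none passed the test. Without CR 5 the count was 11 of 16 with a median of 0.21, and without both CR 1 and CR 5 it was 10 of 16 with a median of 0.13. The enzymes were not alike in CR 5, which was the highest library for Hmgcs1 and Msmo1, the lowest for Mvk and the second lowest for Ebp. Hmgcs1 had 3774, 4768, 2295 and 2769 in AL and 5197, 3033, 2259, 2723 and 7059 in CR, with CR 5, CR 1 and AL 3 highest. Its log2 change was 0.17 ± 0.36, and −0.06 ± 0.29 without CR 5. Msmo1 had 1618, 2056, 1106 and 1139 in AL and 2418, 1117, 1158, 1161 and 3907 in CR, with the same 3 libraries on top, and changes of 0.25 ± 0.42 and −0.05 ± 0.28. Averaged over the 17 enzymes, the level relative to the AL mean was 0.04, 0.38, −0.26 and −0.16 on the log2 scale in AL 1, AL 3, AL 4 and AL 5. It was 0.61, −0.11, −0.11, 0.25 and 0.76 in CR 1 to CR 5. CR 1 and CR 5 were the highest, and CR 2, CR 3 and CR 4 lay inside the AL range. In the cornea the same average ran from −0.13 to 0.18 in AL and from −0.43 to 0.12 in CR.

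Dhcr7 and Nsdhl had the smallest p of the sterol enzymes. Dhcr7 had 392, 352, 286 and 394 in AL and 662, 438, 342, 489 and 875 in CR. All CR libraries but CR 3 were above every AL library, with CR 5 and CR 1 highest. The log2 change was 0.59 ± 0.23 (adjusted p = 0.419), and 0.41 ± 0.20 without CR 5 (adjusted p = 0.531). Nsdhl had 351, 365, 269 and 395 in AL and 658, 472, 312, 396 and 704 in CR, again with CR 3 alone inside the AL range, and changes of 0.51 ± 0.23 and, without CR 5, 0.37 ± 0.21. Hsd17b7 ranged from 243 to 561 in AL and 270.3 to 1205 in CR, with CR 5 highest, and its change went from 0.64 ± 0.43 to 0.35 ± 0.32 when CR 5 was left out.

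The other enzymes of the pathway spread widely within each diet. Mvd ranged from 66.7 to 238 in AL and 101 to 281 in CR and Fdps from 391 to 1166 in AL and 524 to 1165 in CR, with log2 changes of 0.61 ± 0.37 and 0.35 ± 0.31, and 0.46 ± 0.37 and 0.37 ± 0.36 without CR 5. Fdft1 had a change of 0.33 ± 0.36, Pmvk 0.33 ± 0.22, Cyp51 0.32 ± 0.24, Tm7sf2 0.28 ± 0.38 and Sqle 0.19 ± 0.22. Without CR 5 these changes were 0.38 ± 0.41, 0.30 ± 0.23, 0.21 ± 0.24, 0.10 ± 0.37 and 0.12 ± 0.23. Mvk and Lss had changes of 0.08 ± 0.23 and 0.03 ± 0.27, and of 0.22 ± 0.21 and −0.02 ± 0.29 without CR 5. Ebp and Sc5d were the 2 below 0 with all libraries, at −0.16 ± 0.18 and −0.17 ± 0.18, and stood at −0.11 ± 0.18 and −0.31 ± 0.16 without CR 5. Idi1 held at most 41.0 normalized counts, in CR 5, and had a change of 0.42 ± 0.79; it too passed the low-count limit only through CR 5.

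Acaca had the smallest p of all members in the conjunctiva, with normalized counts of 231, 383, 221 and 199 in AL and 148, 109, 179.6, 214 and 167 in CR. Of the CR libraries 4 were below every AL library, and CR 4 lay above the lowest AL value. The log2 change was −0.64 ± 0.24 (95% confidence interval −1.15 to −0.13; adjusted p = 0.386), and −0.66 ± 0.25 without CR 5. Acaca was thus below 0 in both tissues without passing the test in either. Scd2 had 2684, 2954, 2395 and 2601 in AL and 2843, 1759, 1414, 1445 and 3174 in CR. CR 2, CR 3 and CR 4 were below every AL library, and CR 1 and CR 5 were not. Its log2 change was −0.40 ± 0.23, −0.57 ± 0.19 without CR 5 (adjusted p = 0.285) and −0.79 ± 0.15 without both CR 1 and CR 5 (adjusted p = 0.0548). The choice to leave out both was made after the data were seen. It keeps only the CR libraries below every AL library, so the larger change follows from that choice.

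The remaining fatty acid genes had intervals that included 0 with all libraries. Acly and Fasn had log2 changes of 0.10 ± 0.16 and 0.12 ± 0.15, and Elovl5 and Elovl6 of −0.09 ± 0.13 and 0.32 ± 0.17. Without CR 5 they were 0.00 ± 0.15, 0.04 ± 0.15, −0.07 ± 0.14 and 0.20 ± 0.15. Fads1 had a change of 0.32 ± 0.20, and 0.46 ± 0.18 without CR 5, its lowest library. Fads2 had a change of 0.27 ± 0.47, and 0.44 ± 0.47 without CR 5, on at most 55.0 normalized counts. Of the regulators, Srebf1 had normalized counts of 589, 563, 456 and 642 in AL and 587, 528, 341, 377 and 426 in CR. CR 3, CR 4 and CR 5 were below every AL library, with a log2 change of −0.33 ± 0.18 (adjusted p = 0.591). Without CR 5 it was −0.32 ± 0.19. Insig1 had a change of −0.37 ± 0.25 and Srebf2 one of 0.17 ± 0.20, and −0.48 ± 0.24 and 0.17 ± 0.21 without CR 5. Fibroblast genes also differed between the diets here, with 3 of the 7 called lower in CR. All 7 fat cell genes tested had a fitted change above 0, and none was called. Their median was 1.56 on the log2 scale, and 1.54 without CR 5. The summed level of the 8 fat cell genes listed was 200 to 1701 in AL and 625 to 2375 in CR. What part the makeup of the tissue has in the values of the members was not tested.

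The diet change of each member was then compared between the tissues. Of the 33 members tested in both, 0 differed at an adjusted p under 0.05, beside 0.0168% of the 11929 genes, and 3 (9.09%) had an unadjusted p under 0.05, beside 7.48% of genes. Srebf1 had the smallest p. Its change in the cornea exceeded that in the conjunctiva by 0.85 ± 0.22 on the log2 scale (adjusted p = 0.268). The other 2 were Fads1 and Pmvk, whose changes were lower in the cornea than in the conjunctiva by 0.65 ± 0.25 and 0.75 ± 0.29 (adjusted p = 0.515 for both). The test takes the tissues as independent, although the study took several tissues from each mouse and the titles of both tissues share numbers, so that libraries with the same number may come from the same mouse. Libraries of the 8 shared numbers had correlations of their deviations from the group means of −0.42 to 0.14 between the tissues. With cornea minus conjunctiva taken within each number, 0 of 33 members had an adjusted p under 0.05, and Srebf1 differed by 0.84 ± 0.30 (adjusted p = 0.848 by limma).

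The second list held 47 other genes of sterol and fatty acid metabolism, of which 37 were tested in the cornea and 45 in the conjunctiva. None was called in either tissue. At an unadjusted p under 0.05 there were 6 above 0 and 3 below 0 in the cornea, and 4 above 0 in the conjunctiva. These were 24.3% and 8.89% of those tested, beside 18.1% and 9.40% of all genes. Their median log2 change was 0.03 in cornea and 0.17 in conjunctiva. In the cornea the smallest p were those of Abca1, Lpin1 and Hacd2. Abca1, the cholesterol exporter, had 133, 120.2, 147, 126 and 165 in AL and 94.2, 94.2, 68.9, 83.8 and 49.2 in CR normalized counts, with every CR library below every AL library, beside 3.97% of genes with their diets apart, and a log2 change of −0.85 ± 0.23 (adjusted p = 0.0683). Lpin1, a phosphatidate phosphatase, had a change of −0.67 ± 0.20, and Hacd2, a dehydratase of fatty acid elongation, one of 0.73 ± 0.21. In the conjunctiva Acat2, a cytosolic acetoacetyl-CoA thiolase, had 278, 413, 335 and 303 in AL and 628, 464, 438, 495 and 559 in CR normalized counts, with every CR library above every AL library, beside 3.87% of genes with their diets apart, and a log2 change of 0.64 ± 0.17 (adjusted p = 0.140), and 0.61 ± 0.18 without CR 5 (adjusted p = 0.184). Npc1, which exports cholesterol from lysosomes, and Ggps1, which makes geranylgeranyl diphosphate, had changes of 0.37 ± 0.14 and 0.41 ± 0.18, and 0.37 ± 0.14 and 0.31 ± 0.17 without CR 5. Npc1 also had every CR library above every AL library, at 541 to 628 in AL and 661.5 to 859 in CR, whereas the diets overlapped for Ggps1. Without CR 5, 2 of 44 genes of this list had an unadjusted p under 0.05 and the median was 0.10.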

How the data were processed

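Per the labels and the study's methods, RNA was extracted from 19 samples and sequenced as single reads. The authors trimmed the reads, aligned them to mm10 with STAR, counted reads per gene with HTSeq and scaled them with DESeq2 size factors; the labels name GRCm39 as the build, and versions were not given in the sources used here. The labels and the methods name different library kits, so whether counting used strand is not known. In the deposited tables the values are log2 of the count over the size factor, plus 1, scaled by the authors in a separate table for each tissue. From the 24557 features of each table, 5 with a repeated symbol were dropped. All columns were matched to a sample, with 0 unmapped. The log2 step was undone to give normalized counts, of which 100% came out as whole reads within 0.01 of a read.

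Diets were compared with limma 3.58.1 (statmod 1.5.0, R 4.3.3), with an intensity trend and robust moderation, on log2(normalized count + 1) over genes whose mean reached 10 normalized counts. On this scale the fold changes of low genes come out too small. Calls needed an adjusted p (Benjamini-Hochberg) under 0.05 and a fold over 1.5. All p-values are two-sided. The study describes its samples by numbers of mice, and the labels do not tie a library to an animal. The count models considered at first were left out, since the files hold log2 values. The difference between tissues was tested by dividing the difference of both log2 changes by its standard error (Satterthwaite degrees of freedom). Levels between tissues were described on CPM of the recovered reads.

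The members and lists were chosen with earlier results of these data known. All members are named, and of the second list those called or, where none was, the 3 with the smallest p in each tissue. Alternative fits used array weights, quantile normalization, a pseudocount of 0.5 or 10, a low-count limit of 50 or none, no trend, other thresholds, the replicate number as a block and leaving out each library. After the data were seen, voom on the recovered reads, a covariate for each library's share of genes at 0, and leaving out conjunctiva CR 1 and CR 5 together, or cornea AL 4 and CR 1 together, were added. On counts simulated for the cornea design (12199 genes), 82 of 100 genes changed 2-fold and 100 of 100 changed 3-fold were called, with 8 false calls. For the conjunctiva design (13838 genes) the numbers were 63 and 100 of 100, with 14 false calls. The simulation gave every gene the same dispersion, changed only genes with a mean over 50 normalized counts and held no outlying library. These numbers are therefore not the power for the members in the real libraries.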

Additional observations from a re-analysis of the deposited data

Results flagged for a closer look

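Within each group of 4 or 5 libraries, a value was marked where its gap to the nearest other library, over the range of the group, passed Dixon's limit. Chance marks about 1 in 20 groups. Of 140 groups of member values, 19 values were marked, and 10 of them were in conjunctiva CR 5. In that library the marked normalized counts were 2103 for Stard4 (other CR libraries 274 to 686), 1221 for Acly (other CR libraries 819 to 899), 12184 for Scd1 (other CR libraries 533 to 810.4), 1866 for Elovl1 (other CR libraries 578 to 722), 452 for Elovl3 (other CR libraries 0 to 12.7). Also marked there were 4552 for Elovl4 (4.76 to 87.7), 820.0 for Elovl7 (158 to 319), 2367 for Far2 (0 to 68.2), 2051 for Awat2 (0 to 68.2), 2349 for Soat1 (335 to 402).

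The other 9 values were spread over 8 libraries. Hsd17b7 was 1108 in cornea CR 4, where the other CR libraries ran from 987 to 1012. Srebf2 was 1208 in cornea CR 1, where the other CR libraries ran from 1578 to 1724. Stard4 was 1347 in cornea AL 4, where the other AL libraries ran from 976 to 1059.8. Fads1 was 1174 in cornea AL 1, where the other AL libraries ran from 859.5 to 923. Elovl7 was 151 in cornea CR 7, where the other CR libraries ran from 31.1 to 59.3. Fdft1 was 526 in conjunctiva CR 1, where the other CR libraries ran from 255 to 302. Srebf2 was 506 in conjunctiva AL 4, where the other AL libraries ran from 707 to 711. Fads1 was 374 in conjunctiva AL 4, where the other AL libraries ran from 279.8 to 292. Elovl3 was 5.61 in conjunctiva AL 3, where the other AL libraries were at 0. The Elovl3 value in AL 3 rests on 5 reads. What sets these values apart was not tested.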

How the results depend on the processing

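The count of members called in the conjunctiva was 0 under all 22 alternatives, and so was the count of members whose change differed between the tissues. In the cornea the count was 0 under 17 of 23 alternatives. It was 2 with array weights (Acaca, −0.85, and Ebp, −0.86). At an adjusted p under 0.05 with no fold limit it was 1 (Srebf1), beside 1.53% of genes. At an adjusted p under 0.10 with no fold limit it was 2 (Srebf1 and Srebf2). Leaving out 1 cornea library gave 0 to 1 calls: Ebp (−0.94) without AL 4, and Acaca (−1.12) without CR 4. The share of all genes called with array weights, at an adjusted p under 0.10 or with 1 library left out is not given here. These counts of members can therefore not be told from a change in calls over all genes. Without both AL 4 and CR 1, a setting added after the data were seen, the count was 5 (Acaca, Ebp, Pmvk, Srebf1 and Srebf2), and the calls over all genes went from 150 to 1212. The adjusted p of Srebf1 lay between 0.00211 and 0.292 over 21 alternatives, with changes of 0.34 to 0.64.

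The median change of the members stayed below 0 in the cornea, from −0.20 to −0.06. In the conjunctiva it ran from 0.00, without CR 1 and CR 5, to 0.40, under the replicate block and without CR 2. Without CR 5 it was 0.10. Of 1422 single-member values under the alternatives, 60 had another sign than the reported value, none of them with an adjusted p under 0.05 on either side. The cause of these moves was not tested.

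No pairing of AL with CR libraries by replicate number was seen, but 4 shared numbers per tissue are too few to decide it. Deviations of libraries with the same number had correlations of −0.30 to 0.29 (cornea) and −0.06 to 0.05 (conjunctiva), and 1 of 4 and 0 of 4 AL libraries correlated best with their own number. With the number as a block, 0 members were called in either tissue, against 0 without it, and the calls over all genes went from 150 to 46 and from 50 to 10. A number found in a single diet adds nothing to the diet change in that fit. Cornea AL 5 and CR 7 and conjunctiva CR 2 were thus in effect left out, so the fall in calls is not from blocking alone. Genes at 0 reads allow up to 3 reads, so Elovl3, Far2 and Awat2 are below or near what these depths detect in most libraries.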

Other observations

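Of the stearoyl-CoA desaturase paralogs that are no members, Scd4 was at 2793 normalized counts in conjunctiva CR 5, at 39.9 in CR 1 and at or below 8.18 in the other 7 libraries. Scd3 was at 1359.7 in CR 5 and at or below 55.9 in the other 8. Both were looked up after the Scd1 values had been seen.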
